A study of Mus musculus with 27 samples.

Results

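The genes described here are 42 genes of the synaptic vesicle and its release machinery, followed through adult neurogenesis of the mouse in ribosome-bound and in total mRNA. They were chosen as the raw count entries whose Ensembl gene ID maps to a fixed list of 42 mouse symbols, and all 42 were found among the 45195 genes of the count table. The series holds 27 libraries in 10 groups. NSC (neural stem cells) and ENB (early neuroblasts) come from the subventricular zone (SVZ). LNB (late neuroblasts) and Neuron (the neurons they become) come from the olfactory bulb (OB). Each stage was measured in both kinds of mRNA, and both tissues have no-HA controls. All animals were male mice on a C57BL/6 background, used at 8 to 12 weeks of age and given tamoxifen by gavage at 200 mg per kg body weight. The NSC animals were TiCRY mice (Tlx-CreER, Rpl22.HA, eYFP). The ENB, LNB and Neuron animals were DiCRY mice (Dcx-CreER, Rpl22.HA, eYFP). In both, CreER under Tlx or Dcx tags the ribosomal protein Rpl22 with HA and switches on eYFP. The Neuron descriptions spell the driver Dxc. The descriptions carry the time codes 4d (NSC, ribosome-bound), 3dp or 3dpi (ENB and LNB, ribosome-bound) and 4wpi (Neuron), with 3dpi for 2 and 4wpi for 1 of the OB controls and 4d for 1 of the SVZ controls. The ribosome-bound fraction was pulled down with an anti-HA antibody from homogenised tissue, without sorting for NSC, ENB and LNB. It has 2 libraries each of NSC, ENB and Neuron and 3 of LNB. The no-HA controls, 3 of SVZ and 3 of OB, went through the same immunoprecipitation and come from animals marked minus or Cre- in their descriptions, so they measure mRNA that is recovered without the tag. Total mRNA came from 200 to 500 sorted eYFP-positive cells per library, with 3 libraries for each stage, and each replicate used tissue of 1 to 2 mice. Both Neuron immunoprecipitates carry a label field that reads total mRNA and a protocol that describes sorting. They were grouped as ribosome-bound by their titles, and whether their tissue was sorted is uncertain.

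Neurotransmitter release rests on vesicles that are filled, docked, primed, fused and retrieved at the presynaptic membrane. Fusion is driven by SNARE proteins, with Vamp2 on the vesicle and Snap25 and syntaxin on the plasma membrane. It is timed by the calcium sensor synaptotagmin and by complexins. Priming needs Munc13 (Unc13) and RIM proteins of the active zone. Nsf and its adaptors take used SNARE complexes apart, and dynamin, endophilin, amphiphysin and synaptojanin retrieve the membrane. In the adult olfactory bulb, neuroblasts that arrive from the subventricular zone mature into interneurons whose dendrites form release sites.

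Library depth was 6325479 to 13316334 counts in ribosome-bound mRNA, 5960357 to 9120659 in the controls and 5225929 to 15994635 in total mRNA. Levels are CPM, counts relative to library size after TMM scaling. Levels of the 42 genes are compared with each other only as TPM, which is per transcript length. Differences are given as log2 values with ± 1 SE and were tested by edgeR's quasi-likelihood method. A gene was called at an adjusted p (Benjamini-Hochberg over all genes tested) under 0.05, and all 42 genes passed the low count filter in every fit. The p-values measure the spread between these libraries, which may in part be technical. Marker lists of 8 genes each (9 for striatal projection neurons) were summed per library. Neuroblast markers summed to 10670 to 11480 CPM in ENB cells, 4938 to 10620 CPM in LNB cells and 848 to 936 CPM in Neuron cells, and markers of mature bulb interneurons to 2544 to 4808 CPM in Neuron cells. The LNB cells also held astrocyte markers at 865 to 9640 CPM, more than the 144 to 716 CPM of ENB cells. SVZ tissue was not sorted before immunoprecipitation, and the SVZ libraries held markers of striatal projection neurons. These were at 3683 to 4334 CPM in NSC and 6148 to 6244 CPM in ENB immunoprecipitates against 5424 to 7285 CPM in SVZ controls. Among sorted cells NSC replicate 2 stood apart. There the 42 genes took 0.212% of counts, against 0.369% and 0.418% in the other NSC libraries. In bulk libraries, fewer cells of a type and less RNA per cell cannot be told apart.

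Of the 3 consecutive steps in ribosome-bound mRNA, the release machinery changed at most genes between ENB and LNB immunoprecipitates, which is also the step from SVZ to OB tissue. At this step 16 of the 42 genes rose and 7 fell, against 6.81% of all tested genes higher and 6.05% lower. The median log2 change was 0.33 over the 42 genes and 0.08 over all genes. The risers were Snap25, Vamp2, Napb, Syp, Synpr, Syt1, Syn1, Syn2, Sv2a, Cplx1, Rims3, Rab3a, Rab3b, Dnm1, Amph and Sh3gl2, and the fallers were Syt2, Sv2b, Sv2c, Cplx2, Rims1, Rab3c and Rph3a. With RLE in place of TMM scaling 12 genes rose and 7 fell. The same animals gave replicates 1 and 2 of both stages, and with the animals as a block 10 rose and 4 fell. This block, also used below, puts all animals not shared by ENB and LNB in 1 level. Block counts that set ENB or LNB against NSC, Neuron or controls therefore rest largely on the few libraries of these stages from unshared animals. Among immunoprecipitates this is LNB replicate 3 alone, for ENB as well. Among sorted cells these are ENB replicate 1 and LNB replicate 1. Calls lost there cannot be told apart from this loss of information. The count of 23 became 11 without ENB replicate 1 or ENB replicate 2, and 15 without LNB replicate 2 or LNB replicate 3. Against the 1 ENB library that shares their second index, the 3 LNB libraries had a median log2 difference of 0.26 over the 42 genes.

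The no-HA controls also differed between the tissues. In OB against SVZ controls 12 of the 42 genes were higher and 6 lower, against 5.65% and 6.12% of all tested genes. Of the 16 risers in the immunoprecipitates 10 were also higher in OB controls (10 of the 12 higher there), and of the 7 fallers 5 were also lower in OB controls (5 of the 6 lower there). None was called in opposite directions. Higher in both were Amph, Napb, Rab3b, Rims3, Sh3gl2, Syn1, Synpr, Syp, Syt1 and Vamp2. Lower in both were Cplx2, Rims1, Rph3a, Sv2c and Syt2. When the step in the controls was subtracted from the step in the immunoprecipitates, 0 of the 42 genes passed edgeR's test, 7 had an unadjusted p under 0.05, and DESeq2 called 2, both lower. Without the low count filter edgeR called 3 (1 higher and 2 lower), and with the second index as a term it called 6 (5 higher and 1 lower). Of all genes 0.367% passed as higher and 0.0315% as lower, 0.399% in all. Striatal projection neuron markers were lower in OB than in SVZ libraries of both kinds, at 619 to 717 CPM in LNB against 6148 to 6244 CPM in ENB immunoprecipitates, and at 226 to 397 CPM in OB against 5424 to 7285 CPM in SVZ controls. Oligodendrocyte markers were lower too, at 1715 to 2351 CPM in LNB against 19770 to 20190 CPM in ENB immunoprecipitates, and at 2270 to 5008 CPM in OB against 17710 to 22580 CPM in SVZ controls. Markers of mature bulb interneurons were higher, at 5210 to 5770 CPM in LNB against 1221 to 1233 CPM in ENB immunoprecipitates, and at 1941 to 3422 CPM in OB against 1034 to 1393 CPM in SVZ controls. The part of these markers in the changes of the 42 genes was not tested.

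The other steps in ribosome-bound mRNA moved fewer of the genes. From NSC to ENB, Syt5, Sv2c, Bsn, Rims2 and Rab3c rose and Syn3 fell, against 3.44% and 4.85% of all genes. This count of 6 became 1 without either ENB replicate 1 or NSC replicate 2, 2 when ENB replicate 2 was left out and 3 when NSC replicate 1 was, and 0 with the animals as a block, while DESeq2 called 12. Of the risers, Sv2c, Bsn, Rims2 and Rab3c were called lower in NSC immunoprecipitates than in SVZ controls. In ENB immunoprecipitates 0 of the 42 genes differed from SVZ controls, against 1.52% of all genes. From LNB to Neuron, Vamp2 and Sv2c rose and Syn3, Unc13a and Unc13b fell, against 0.378% and 3.75% of all genes, and the median log2 change was 0.38 over the 42 genes and -0.15 over all genes. The count of 5 became 3 without LNB replicate 1, LNB replicate 2 or Neuron replicate 2, and 2 with the animals as a block. It was 10 with DESeq2 (7 higher and 3 lower) and 12 with the second index as a term (9 higher and 3 lower). LNB and Neuron immunoprecipitates share no second index, so the count with that term rests on the other groups in the fit. Over the whole course, Neuron against NSC immunoprecipitates, 24 genes rose and 7 fell, against 11% and 15.7% of all genes, with a median log2 change of 1.09 over the 42 genes and -0.05 over all genes.

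In total mRNA of sorted cells the machinery rose at the last step. In Neuron against LNB cells 28 of the 42 genes were higher and 0 were lower, against 5.33% and 9.34% of all tested genes, and the median log2 change was 1.99 over the 42 genes and -0.18 over all genes. RLE scaling moved the median of all genes to -0.01 and that of the 42 genes to 2.16, and 30 genes were then higher. In 34 of the 42 genes every Neuron library lay above every LNB library, which held for 13.4% of all tested genes. Of the 28 calls, 22 held whichever library was left out; Bin1, Bsn, Napa, Rims3, Rph3a and Syt5 each lost theirs in at least 1 such fit, Syt5 without LNB replicate 1 (adjusted p = 0.0553) and Rims3 without LNB replicate 1 and Neuron replicates 1 and 3, each left out in turn (adjusted p 0.0529 to 0.0616). With the animals shared by ENB and LNB as a block, 17 genes were higher. The 1 LNB library that shares a second index with the 3 Neuron libraries gave a median log2 difference of 1.83, with 40 of 42 genes above 0. Markers of mitral cells and other glutamatergic neurons moved with this step, at 812 to 1030 CPM in Neuron against 79.0 to 261 CPM in LNB cells with Tbx21 at 0 in LNB, as did those of bulb interneurons, at 2544 to 4808 CPM against 629.8 to 1306 CPM. Oligodendrocyte markers ran from 1907 to 8676 CPM (median 6088) in Neuron cells, against 1465 to 3344 CPM (median 1797) in LNB cells. Astrocyte markers had a lower median in Neuron cells, at 819 to 4130 CPM (median 1772) against 865 to 9640 CPM (median 6557) in LNB cells. So did stem cell markers, at 1079 to 4532 CPM (median 2096) against 1103 to 10540 CPM (median 7125). The part of these markers in the result was not tested.

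At the earlier steps in total mRNA fewer of the genes were called than at the last. In ENB against NSC cells, Bsn and Unc13a rose and Vamp1, Nsf, Syt4, Syn2, Syn3, Rims3 and Dnm1 fell, against 4.95% and 5.12% of all genes. The count of 9 became 4 when ENB replicate 1 was left out and 3 without ENB replicate 2 or NSC replicate 3. It was 1 with the animals as a block, and 7 without NSC replicate 2, while DESeq2 called 16 (5 higher and 11 lower). Among libraries that share the second index of their barcode, the median log2 difference over the 42 genes was 0.67 (2 ENB against 1 NSC) and -0.21 (1 ENB against 2 NSC). Its direction thus differed, but the 1 NSC library behind the first value is replicate 2, which stood apart. The index and that library cannot be told apart here. In LNB against ENB cells, Vamp1, Syt7, Pclo and Dnm1 rose and 0 genes fell, against 2.8% and 0.966% of all genes. That count of 4 became 2 without ENB replicate 1, 1 without ENB replicate 2, ENB replicate 3, LNB replicate 1 or LNB replicate 3, and 6 without LNB replicate 2, and it was 2 with the animals as a block. DESeq2 called 11 at this step and edgeR without the low count filter 8, all higher, while the second index as a term gave 1. Taken against NSC directly, 6 genes were higher in LNB cells (Synpr, Syt7, Bsn, Pclo, Rims1 and Unc13b; 4.25% of all genes, with 2.59% lower), a count that became 1 without LNB replicate 1, LNB replicate 2, NSC replicate 2 or NSC replicate 3 and 3 without NSC replicate 1, and 1 with the animals as a block. In Neuron against NSC cells 31 were higher and 0 lower, against 11% and 12.8% of all genes, and 30 of these calls held whichever library was left out. The summed level of the 42 genes was 1676 ± 553 TPM in NSC, 1467 ± 181 TPM in ENB, 2033 ± 455 TPM in LNB and 10313 ± 1735 TPM in Neuron cells (SD, n = 3 each).

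**Figure D1:**
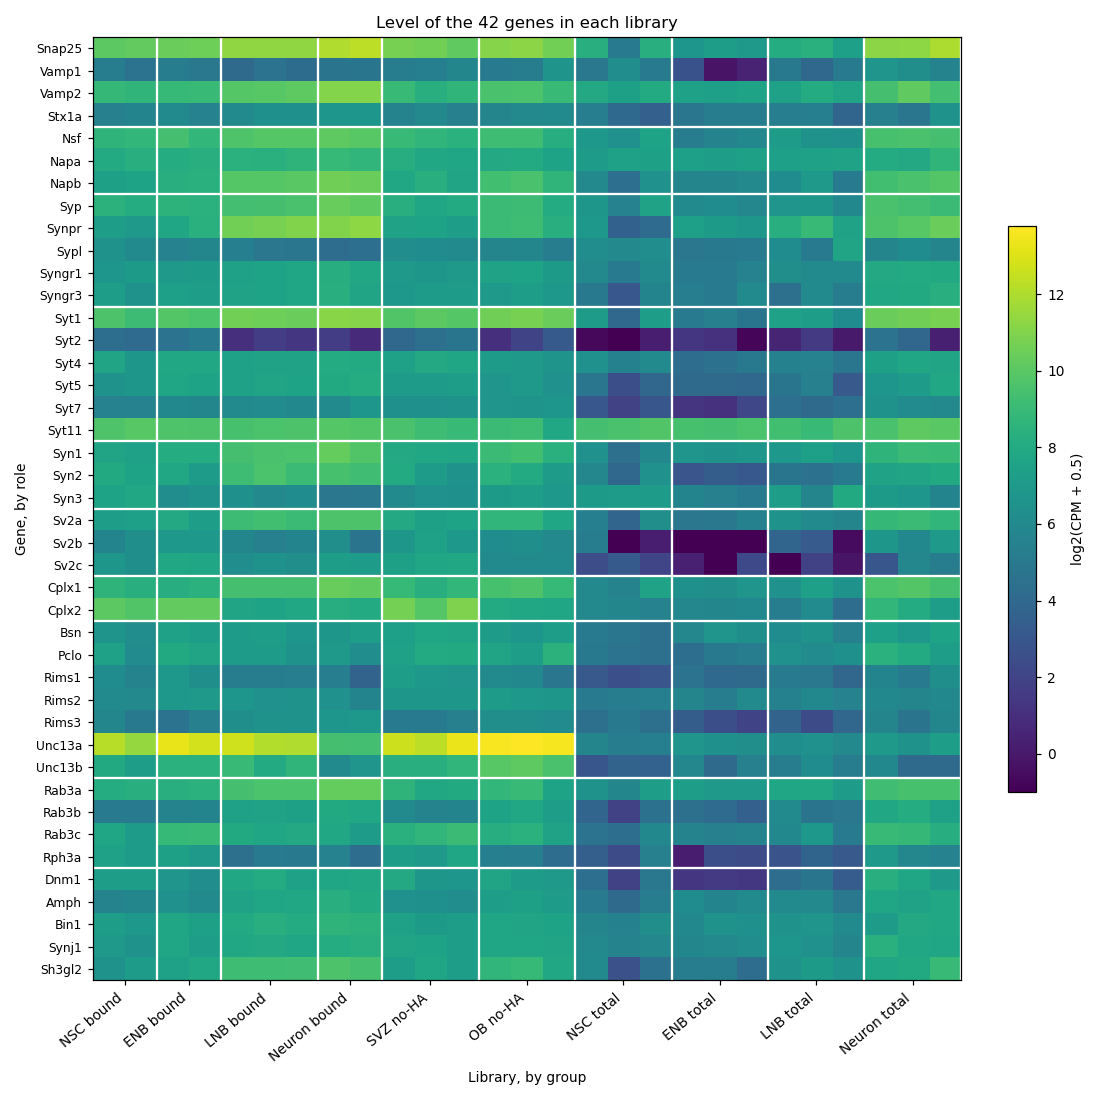
Level of each of the 42 genes in each of the 27 libraries, as log2(CPM + 0.5), with genes down the page by role and libraries across by group (bound, ribosome-bound; no-HA, control). Many rows brighten at LNB among the ribosome-bound libraries and at Neuron among the total libraries, and the Unc13a row is brightest in the OB controls, where it averaged 13146 CPM.

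Onset was read as the first stage called higher than NSC in the same kind of mRNA. In ribosome-bound mRNA the onset was ENB for 5 genes, LNB for 21 and Neuron for 3, and 13 had none. The LNB against NSC calls behind it (22 higher and 5 lower, against 10.4% and 9.45% of all genes) became 17 in all without NSC replicate 2 and 12 with the animals as a block. In total mRNA it was ENB for 2 genes, LNB for 5 and Neuron for 25, and 10 had none. Of the 25 genes with an onset in both, 19 had the earlier onset in ribosome-bound mRNA, 5 had the same stage, and 1, Syt7, had the earlier onset in total mRNA. The commonest pair, LNB in ribosome-bound and Neuron in total mRNA, held 17 genes. Of those 19 genes, 3 lay above the no-HA control of the tissue at the stage of their ribosome-bound onset, and the other 16 did not pass that test. The 5 genes with a ribosome-bound onset at ENB did not pass it either. Among these 5, Sv2c, Bsn, Rims2 and Rab3c were called lower in NSC immunoprecipitates than in SVZ controls. Onset was not counted over all genes, so these counts have no share to be set against. Over all genes, 10.4% were higher in LNB than in NSC in ribosome-bound mRNA and 4.25% in total mRNA. For Neuron against NSC the share was 11% in both kinds. By level, as the first stage whose mean reached 50% of the highest stage mean, onset in ribosome-bound mRNA was NSC for 17 genes, ENB for 9, LNB for 15 and Neuron for 1, and onset in total mRNA was NSC for 7, ENB for 4 and Neuron for 31. The highest stage mean was Neuron for 26 genes in ribosome-bound and for 39 in total mRNA. Since the 2 kinds of library differ in tissue handling as well as in RNA, an onset that differs between them cannot be told apart from that difference in handling. Sorted LNB cells held stem cell markers at 1103 to 10540 CPM (median 7125), against 4791 to 6126 CPM in NSC cells. Their astrocyte markers were at 865 to 9640 CPM (median 6557), against 3374 to 4174 CPM in NSC cells. The part of these markers in the onset in total mRNA was not tested.

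**Figure D2:**
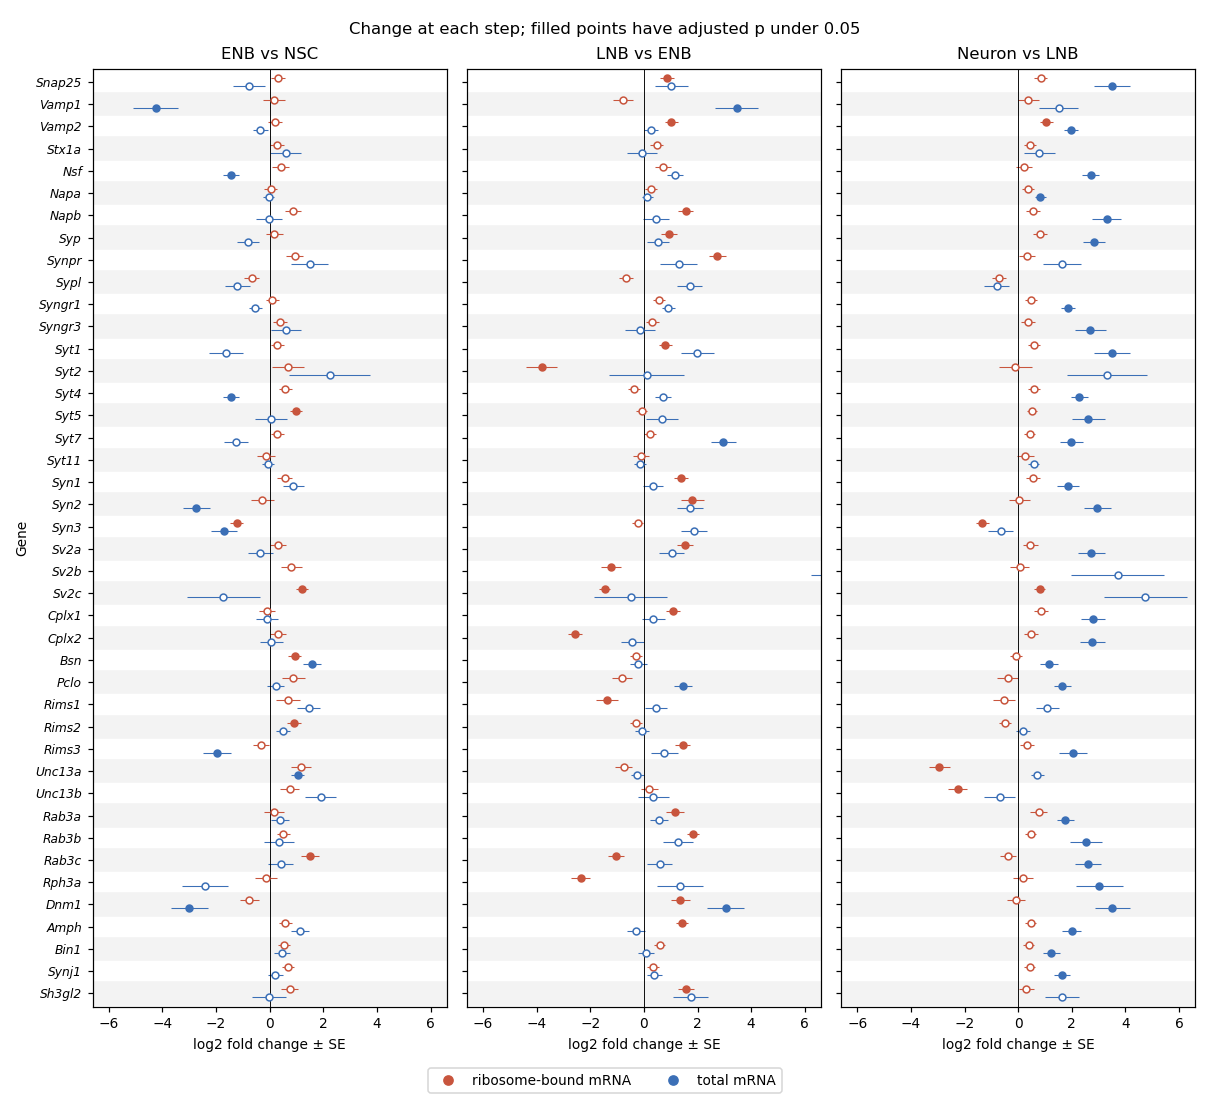
Change of each of the 42 genes at the 3 consecutive steps, as log2 fold change with SE bars, in ribosome-bound mRNA (upper, red) and total mRNA (lower, blue), filled where the adjusted p was under 0.05. Filled red points gather at LNB vs ENB (23 genes) and filled blue points at Neuron vs LNB (28 genes); Sv2b in total mRNA lies outside the axis at the first 2 steps because all ENB libraries were at 0.

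Whether a step differed between ribosome-bound and total mRNA was tested as an interaction. From LNB to Neuron the change in ribosome-bound mRNA was below that in total mRNA for 13 genes (Nsf, Napb, Syp, Syngr1, Syt1, Syt4, Syn2, Sv2a, Cplx2, Pclo, Unc13a, Rab3c and Dnm1) and above it for 0, against 1.69% and 1.46% of all genes. The median difference was -1.71 on the log2 scale over the 42 genes and -0.10 over all genes. The count of 13 became 2 without either Neuron immunoprecipitate, 3, 4 and 5 without LNB immunoprecipitate replicates 1, 2 and 3, 4 without LNB cell replicate 1, and 8 and 7 without Neuron cell replicates 1 and 2. Nsf and Unc13a were the calls that held whichever library was left out, and with the shared animals as a block 1 gene, Unc13a, was called. The no-HA controls were not part of this test. In immunoprecipitates Unc13a lay below the OB controls at both stages. It had 4227 to 6689 CPM in LNB and 651 and 677 CPM in Neuron, against 12497 to 14165 CPM in OB controls. From ENB to LNB, Amph changed more in ribosome-bound mRNA and Vamp1, Sypl, Syt7, Syn3, Sv2b, Cplx2, Pclo and Rph3a changed less, against 1.89% and 4.26% of all genes, with a median difference of -0.28 over the 42 genes and -0.09 over all genes. That count of 9 became 1 and 3 without ENB immunoprecipitate replicates 1 and 2, 5, 3 and 4 without LNB immunoprecipitate replicates 1, 2 and 3, 5 without ENB cell replicate 3, and 2 with the animals as a block, and Syt7 was the call that held whichever library was left out. From NSC to ENB, Vamp1, Nsf, Syt4 and Syn2 changed more, and 0 changed less, against 1.49% and 1.32% of all genes. The count of 4 became 0 without ENB immunoprecipitate replicate 1 or NSC immunoprecipitate replicate 2 and with the animals as a block, 1 without NSC immunoprecipitate replicate 1, and 9 without NSC cell replicate 2. From NSC to Neuron 12 genes changed less and 0 more in ribosome-bound mRNA, against 3.39% and 2.45% of all genes. This count became 5 without either Neuron immunoprecipitate and 7 without NSC immunoprecipitate replicate 1.

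Against the no-HA control of the tissue, the release machinery stood out in Neuron immunoprecipitates. There 23 of the 42 genes were higher and 7 lower than in OB controls, against 11.6% and 15.7% of all tested genes, with a median log2 difference of 0.76 over the 42 genes and -0.21 over all genes. The count of 30 ranged from 21 without Neuron replicate 1 to 29 without OB control replicate 2. Markers of mature bulb interneurons were at 8939 to 9046 CPM in Neuron immunoprecipitates against 1941 to 3422 CPM in OB controls. In Neuron immunoprecipitates oligodendrocyte markers were at 519.6 to 874 CPM and astrocyte markers at 218 to 312 CPM. In OB controls oligodendrocyte markers were at 2270 to 5008 CPM and astrocyte markers at 922 to 2085 CPM. Their part in this difference was not tested. In LNB immunoprecipitates Nsf, Synpr, Syt5, Syn2 and Rab3a were higher and Vamp1, Syt7, Syn3, Unc13a and Unc13b lower than in OB controls, against 7% and 3.06% of all genes. That count of 10 became 1 without LNB replicate 2 or LNB replicate 3 and 5 without LNB replicate 1 or OB control replicate 3, and 1 with the animals as a block. Synpr was the call that held in every fit that left out a library. In ENB immunoprecipitates 0 genes passed edgeR's test or DESeq2 against SVZ controls, 4 had an unadjusted p under 0.05, and of all genes 0.708% passed as higher and 0.813% as lower, 1.52% in all. In NSC immunoprecipitates Syn3 was higher and Syt7, Sv2c, Bsn, Rims2, Rab3c, Amph and Synj1 were lower than in SVZ controls, against 8.75% and 6.59% of all genes. The count of 8 became 1 without NSC replicate 2 and 5 without NSC replicate 1 and with the animals as a block. The counts of Syn3 are uncertain, as described with the synapsins.

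**Figure D3:**
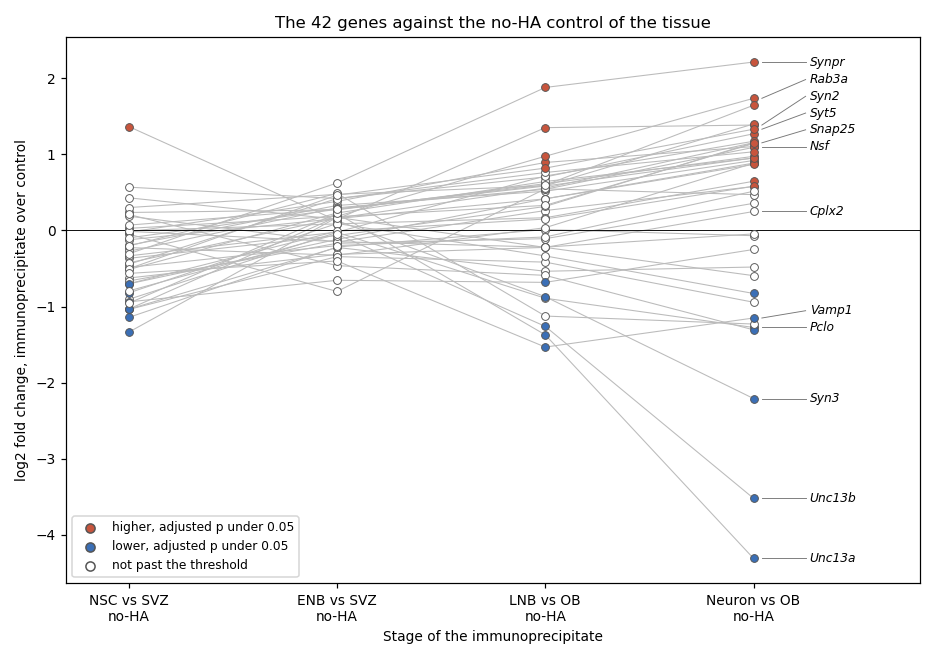
Log2 fold change of each of the 42 genes in the immunoprecipitate of a stage over the no-HA control of its tissue, with one grey line per gene and filled points where the adjusted p was under 0.05. The spread is narrow at ENB, where 0 genes were called, and wide at Neuron, with 23 genes called higher and 7 lower, Unc13a lowest at -4.31.

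Promoter windows from RefSeq (GRCm38.p6, 250 bases before to 50 after an annotated start) matched 33 of the 42 genes by symbol; Snap25, Vamp2, Syngr3, Syt4, Syt5, Syt7, Syn3, Rims2 and Bin1 had no entry. The full cAMP response element TGACGTCA, searched on both strands (it reads the same on each), was in windows of 3 of these 33 genes (9.09%), Napa, Syn1 and Sh3gl2, against 2.03% of all 27025 genes with a window and 1.79% of all 32851 windows. The GC box GGGCGG, on either strand, was in windows of 27 of the 33 (81.8%), against 38.2% of genes and 35.7% of windows, and TATAAA in those of 2 (6.06%), Sv2b and Rab3b, against 15.7% of genes and 13.6% of windows. The median GC content was 62.3% in windows of the 42 genes and 52.7% in all windows. A match is a string of letters in a window and was not tested as a binding site. The windows of the 3 genes with the response element, and the GC box window of Synpr, the gene with the largest ribosome-bound rise at LNB, are shown for the placement of these elements, with both elements in capitals and each window read 5′ to 3′ on the gene's strand. They lie at chr7:16098330-16098629 (plus strand, Napa), chrX:20920869-20921168 (minus strand, Syn1), chr4:85205206-85205505 (plus strand, Sh3gl2) and chr14:13284530-13284829 (plus strand, Synpr).
Napa: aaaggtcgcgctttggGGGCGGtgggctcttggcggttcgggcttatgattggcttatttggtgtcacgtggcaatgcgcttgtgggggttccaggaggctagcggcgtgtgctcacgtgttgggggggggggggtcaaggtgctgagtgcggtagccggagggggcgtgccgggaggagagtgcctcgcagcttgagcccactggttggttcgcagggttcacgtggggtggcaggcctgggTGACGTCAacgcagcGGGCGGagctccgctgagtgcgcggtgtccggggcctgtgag
Syn1: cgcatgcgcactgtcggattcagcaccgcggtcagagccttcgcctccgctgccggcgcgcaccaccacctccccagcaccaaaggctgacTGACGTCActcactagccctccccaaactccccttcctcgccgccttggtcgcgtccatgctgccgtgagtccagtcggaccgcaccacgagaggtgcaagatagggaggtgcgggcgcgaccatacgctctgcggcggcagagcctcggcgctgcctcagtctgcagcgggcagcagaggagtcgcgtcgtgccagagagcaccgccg
Sh3gl2: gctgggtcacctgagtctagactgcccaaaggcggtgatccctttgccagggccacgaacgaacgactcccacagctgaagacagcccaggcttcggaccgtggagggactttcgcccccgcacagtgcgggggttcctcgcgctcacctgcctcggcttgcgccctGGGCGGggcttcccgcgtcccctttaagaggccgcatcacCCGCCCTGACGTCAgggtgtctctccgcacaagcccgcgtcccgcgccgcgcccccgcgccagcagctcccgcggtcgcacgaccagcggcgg
Synpr: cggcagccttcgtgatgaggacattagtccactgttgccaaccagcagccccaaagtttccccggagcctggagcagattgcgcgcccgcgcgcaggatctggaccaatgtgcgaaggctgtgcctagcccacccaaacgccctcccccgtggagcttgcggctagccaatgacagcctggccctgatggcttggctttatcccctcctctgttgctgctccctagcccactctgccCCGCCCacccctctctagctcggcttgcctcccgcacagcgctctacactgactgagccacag

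Among the core SNARE genes, the vesicle SNARE Vamp2 and the membrane SNARE Snap25 rose at LNB and were highest at Neuron in ribosome-bound mRNA, and rose at Neuron in total mRNA. Vamp2 (ENSMUSG00000020894, chromosome 11, 69088528 to 69092381) had 457 and 406 CPM in NSC, 472 and 529 CPM in ENB, 949, 973 and 1128 CPM in LNB and 2131 and 2076 CPM in Neuron immunoprecipitates. Vamp2 in no-HA controls was at 499, 324 and 411 CPM in SVZ and 736, 767 and 514 CPM in OB tissue. In total mRNA Vamp2 had 245, 169.8 and 263 CPM in NSC, 179, 161 and 194 CPM in ENB, 178, 270.0 and 195 CPM in LNB and 683, 1163 and 671 CPM in Neuron cells. Every LNB immunoprecipitate lay above every ENB one and every Neuron immunoprecipitate above every OB control, and Neuron cells lay above all other sorted cells. The log2 change of Vamp2 was 1.02 ± 0.25 (SE), adjusted p = 0.0118, at LNB vs ENB and 1.05 ± 0.24 (SE), adjusted p = 0.0195, at Neuron vs LNB in ribosome-bound mRNA, and 1.97 ± 0.28 (SE), adjusted p = 0.000852, at Neuron vs LNB in total mRNA. Neuron immunoprecipitates exceeded OB controls by 1.65 ± 0.24 (SE), adjusted p = 0.000313. The call at LNB vs ENB ended without ENB replicates 1 and 2 and LNB replicate 3, each left out in turn (adjusted p 0.0512 to 0.116). That at Neuron vs LNB in ribosome-bound mRNA ended without LNB replicates 1 and 2 and Neuron replicates 1 and 2, each left out in turn (adjusted p 0.0595 to 0.098).

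Snap25 (ENSMUSG00000027273, chromosome 2, 136713439 to 136782428) had 1077 and 1216 CPM in NSC, 1364 and 1457 CPM in ENB, 2569, 2576 and 2543 CPM in LNB and 4139 and 5008 CPM in Neuron immunoprecipitates. Snap25 in no-HA controls was at 1708, 1578 and 1145 CPM in SVZ and 2157, 2413 and 1606 CPM in OB tissue. In total mRNA Snap25 had 318, 32.5 and 318 CPM in NSC, 108, 149.7 and 130.2 CPM in ENB, 283, 338 and 165 CPM in LNB and 2339, 2502 and 4083 CPM in Neuron cells. The Neuron cells did not overlap with any other stage, and NSC replicate 2 was far below the other NSC libraries. At Neuron vs LNB in total mRNA the log2 change was 3.50 ± 0.66 (SE), adjusted p = 0.00476, and Neuron immunoprecipitates exceeded OB controls by 1.15 ± 0.24 (SE), adjusted p = 0.00345. The rise at LNB vs ENB in ribosome-bound mRNA was 0.86 ± 0.25 (SE), adjusted p = 0.0332. This call ended without ENB replicates 1 and 2 and LNB replicates 1, 2 and 3, each left out in turn (adjusted p 0.0785 to 0.189). By TPM, Snap25 was the most abundant of the 42 genes in Neuron cells, at 2543 ± 927 TPM (SD, n = 3), against rank 3 in NSC cells at 166 ± 126 TPM (SD, n = 3). Syt11 held first place in NSC, ENB and LNB cells.

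Vamp1 (ENSMUSG00000030337, chromosome 6, 125215581 to 125222306), the other vesicle SNARE of the list, moved apart from both. It had 36.8 and 24.2 CPM in NSC, 38.0 and 30.3 CPM in ENB, 17.0, 24.0 and 18.4 CPM in LNB and 25.7 and 25.9 CPM in Neuron immunoprecipitates. Vamp1 in no-HA controls was at 38.3, 41.5 and 55.4 CPM in SVZ and 35.4, 37.5 and 98.8 CPM in OB tissue. In total mRNA Vamp1 had 29.6, 76.2 and 34.3 CPM in NSC, 6.04, 0.376 and 0.848 CPM in ENB, 31.5, 15.7 and 33.8 CPM in LNB and 103, 77.6 and 48.4 CPM in Neuron cells. It was low in all 3 ENB libraries, none of which overlapped with NSC or LNB cells. Vamp1 changed by -4.25 ± 0.84 (SE), adjusted p = 0.0101, at ENB vs NSC and 3.45 ± 0.81 (SE), adjusted p = 0.0398, at LNB vs ENB in total mRNA. The call at LNB vs ENB ended without ENB replicates 2 and 3 and LNB replicates 1 and 3, each left out in turn (adjusted p 0.099 to 0.145). In ribosome-bound mRNA it lay below the OB control in Neuron (-1.15 ± 0.40, adjusted p = 0.0414) and LNB immunoprecipitates (-1.53 ± 0.35, adjusted p = 0.018). The Neuron call ended without Neuron replicates 1 and 2 and OB control replicate 3, each left out in turn (adjusted p 0.126 to 0.243). The LNB call ended without LNB replicates 1, 2 and 3 and OB control replicate 3, each left out in turn (adjusted p 0.0615 to 0.0939). Vamp2 made up at least 81.9% of the summed TPM of Vamp1 and Vamp2 in every group. Stx1a, syntaxin 1A of the plasma membrane, passed no step test and averaged 108 ± 0.636 CPM in Neuron immunoprecipitates (SD, n = 2) against 59.2 ± 5.89 CPM in OB controls (SD, n = 3), 0.87 ± 0.23 (adjusted p = 0.012) on the log2 scale, a call that ended without Neuron replicate 2 (adjusted p = 0.0579).

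**Figure D4:**
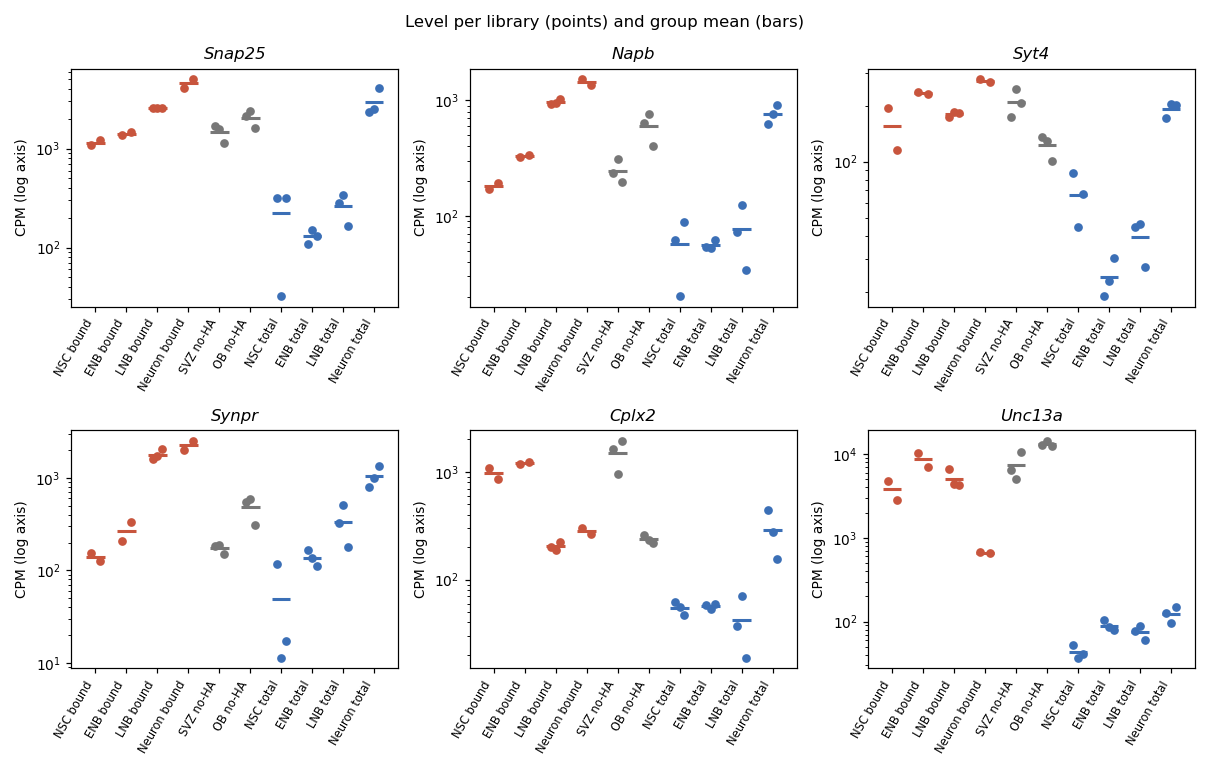
Level per library in CPM on a log axis for Snap25, Napb, Syt4, Synpr, Cplx2 and Unc13a, with points for libraries and bars for group means (red, ribosome-bound; grey, no-HA control; blue, total). Snap25, Napb and Synpr have their highest group mean at Neuron in both kinds of mRNA, Cplx2 is high in all SVZ immunoprecipitates and SVZ controls, and Unc13a is highest in OB controls and lowest in total mRNA.

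The genes that take SNARE complexes apart rose together at Neuron in total mRNA. All 3 (Nsf, Napa and Napb) were called higher than in LNB cells, against 5.33% of all genes. Napb, the neuronal beta-SNAP adaptor (ENSMUSG00000027438, chromosome 2, 148693985 to 148732425), had 170.1 and 193 CPM in NSC, 326 and 335 CPM in ENB, 940.5, 949.7 and 1038 CPM in LNB and 1521 and 1371 CPM in Neuron immunoprecipitates. Napb in no-HA controls was at 236, 309 and 196 CPM in SVZ and 632, 759.7 and 407 CPM in OB tissue. In total mRNA Napb had 62.2, 20.4 and 88.3 CPM in NSC, 53.5, 53.3 and 62.5 CPM in ENB, 72.8, 125 and 34.4 CPM in LNB and 624, 759 and 906 CPM in Neuron cells. Neuron cells lay above all other sorted cells, and LNB immunoprecipitates above all SVZ immunoprecipitation libraries and all OB controls. The log2 change was 3.30 ± 0.53 (SE), adjusted p = 0.00197, at Neuron vs LNB in total mRNA and 1.56 ± 0.28 (SE), adjusted p = 0.00117, at LNB vs ENB in ribosome-bound mRNA, where OB controls exceeded SVZ controls by 1.28 ± 0.24 (SE), adjusted p = 0.00153. Nsf, the ATPase itself (ENSMUSG00000034187, chromosome 11, 103821782 to 103954056), had 400.4 and 452 CPM in NSC, 678 and 449 CPM in ENB, 848, 944 and 941 CPM in LNB and 1129 and 978 CPM in Neuron immunoprecipitates. Nsf in no-HA controls was at 519.6, 431 and 347 CPM in SVZ and 589, 589.8 and 293 CPM in OB tissue. In total mRNA Nsf had 116, 88.1 and 187 CPM in NSC, 37.8, 47.8 and 59.0 CPM in ENB, 145, 93.7 and 84.9 CPM in LNB and 705, 733 and 682 CPM in Neuron cells. The 3 ENB libraries were the lowest and the 3 Neuron libraries the highest, without overlap with other stages. Nsf changed by 2.71 ± 0.31 (SE), adjusted p = 0.000323, at Neuron vs LNB, and by -1.43 ± 0.30 (SE), adjusted p = 0.0133, at ENB vs NSC, a call that ended without ENB replicate 1 and NSC replicate 3, each left out in turn (adjusted p 0.0557 to 0.0573). In LNB immunoprecipitates Nsf exceeded the OB control by 0.89 ± 0.26 (SE), adjusted p = 0.0413, a call that ended without LNB replicates 1, 2 and 3 and OB control replicates 1 and 3, each left out in turn (adjusted p 0.0615 to 0.139). Napa, the widely expressed alpha-SNAP whose window with a response element is shown above, rose less, by 0.82 ± 0.21 (adjusted p = 0.0217) at the same step, and lost the call without LNB replicate 1 and Neuron replicate 3, each left out in turn (adjusted p 0.069 to 0.088). The share of Napb in the summed TPM of Napa and Napb was 23.8%, 33.9%, 58.5% and 60.8% in NSC, ENB, LNB and Neuron immunoprecipitates, against 32.3% in SVZ and 52.2% in OB controls. In NSC, ENB, LNB and Neuron cells it was 12.5%, 12.5%, 15.6% and 53.0% (means of 2 or 3 libraries).

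Of the vesicle proteins with 4 membrane passes, Synpr (synaptoporin) had the largest ribosome-bound rise at LNB of all 42 genes, whereas Sypl, a relative found outside synapses as well, ran the other way. Synpr (ENSMUSG00000056296, chromosome 14, 13284780 to 13615469) had 156 and 125 CPM in NSC, 206 and 330.5 CPM in ENB, 1589.9, 1737 and 2028 CPM in LNB and 2017 and 2482 CPM in Neuron immunoprecipitates. Synpr in no-HA controls was at 185, 188 and 149 CPM in SVZ and 549, 598 and 309 CPM in OB tissue. In total mRNA Synpr had 117, 11.4 and 17.4 CPM in NSC, 165, 135 and 111 CPM in ENB, 323, 507 and 179.9 CPM in LNB and 806, 1003 and 1348 CPM in Neuron cells. LNB and Neuron immunoprecipitates lay above every OB control, and among sorted cells the 3 Neuron libraries were highest. The log2 change was 2.74 ± 0.32 (SE), adjusted p = 2.88e-05, at LNB vs ENB in ribosome-bound mRNA, and LNB and Neuron immunoprecipitates exceeded the OB control by 1.88 ± 0.27 (adjusted p = 0.00321) and 2.21 ± 0.29 (adjusted p = 0.000147). In total mRNA the rise over NSC was 2.79 ± 0.73 (SE), adjusted p = 0.0411, in LNB cells, a call that ended without LNB replicates 1 and 2 and NSC replicates 2 and 3, each left out in turn (adjusted p 0.0905 to 0.129), and 4.43 ± 0.79 (SE), adjusted p = 0.00197, in Neuron cells. Syngr1, synaptogyrin 1 (ENSMUSG00000022415, chromosome 15, 80091334 to 80119501), had 108 and 135 CPM in NSC, 127 and 133 CPM in ENB, 178, 192 and 203 CPM in LNB and 303 and 229.7 CPM in Neuron immunoprecipitates. Syngr1 in no-HA controls was at 128, 114 and 125 CPM in SVZ and 186, 192 and 132 CPM in OB tissue. In total mRNA Syngr1 had 61.5, 35.2 and 64.4 CPM in NSC, 32.0, 32.7 and 46.2 CPM in ENB, 80.1, 63.1 and 65.4 CPM in LNB and 247, 266 and 249.7 CPM in Neuron cells. Neuron cells were separate from all others, with a log2 change of 1.87 ± 0.26 (SE), adjusted p = 8e-04, from LNB. Syp, synaptophysin, rose by 2.83 ± 0.43 (adjusted p = 0.00138) at the same step in total mRNA and by 0.94 ± 0.29 (adjusted p = 0.0407) at LNB vs ENB in ribosome-bound mRNA, the second call ending without ENB replicates 1 and 2 and LNB replicates 1, 2 and 3, each left out in turn (adjusted p 0.0767 to 0.2). Syngr3 rose by 2.69 ± 0.58 (adjusted p = 0.01) at Neuron vs LNB in total mRNA.

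Sypl (ENSMUSG00000020570, chromosome 12, 32953855 to 32979502) had 96.2 and 66.9 CPM in NSC, 47.4 and 54.9 CPM in ENB, 41.6, 28.2 and 27.6 CPM in LNB and 19.0 and 20.4 CPM in Neuron immunoprecipitates. Sypl in no-HA controls was at 75.7, 72.2 and 63.4 CPM in SVZ and 53.3, 54.8 and 38.3 CPM in OB tissue. In total mRNA Sypl had 74.5, 62.8 and 77.0 CPM in NSC, 29.0, 30.7 and 33.4 CPM in ENB, 73.6, 35.8 and 196 CPM in LNB and 51.6, 71.7 and 51.8 CPM in Neuron cells. Neuron immunoprecipitates were the lowest of all immunoprecipitation libraries, and among sorted cells the 3 ENB libraries were the lowest while LNB cells spread the most. Sypl changed by -2.04 ± 0.29 (adjusted p = 8.93e-05) on the log2 scale in Neuron against NSC immunoprecipitates and by -1.31 ± 0.27 (adjusted p = 0.00316) against OB controls. Synpr, Syp and Sypl together form the synaptophysin family here, in which Synpr held 72.1% and 64.0% of the summed TPM in LNB and Neuron immunoprecipitates, against 48.9% in OB controls. In NSC and ENB immunoprecipitates it held 26.1% and 39.5%, against 34.1% in SVZ controls. In NSC, ENB, LNB and Neuron cells Synpr held 16.2%, 58.6%, 58.9% and 58.0%.

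Of the 6 synaptotagmins, Syt1, Syt4, Syt5 and Syt7 were higher in Neuron than in LNB cells, while Syt2 fell in ribosome-bound mRNA at the step to LNB. Syt4, a member that lacks fast calcium sensing (ENSMUSG00000024261, chromosome 18, 31437808 to 31447415), had 195 and 115 CPM in NSC, 236 and 230.2 CPM in ENB, 173, 184 and 182 CPM in LNB and 276 and 267 CPM in Neuron immunoprecipitates. Syt4 in no-HA controls was at 173, 245 and 206 CPM in SVZ and 136, 129 and 101 CPM in OB tissue. In total mRNA Syt4 had 87.3, 44.6 and 67.0 CPM in NSC, 19.1, 22.9 and 30.5 CPM in ENB, 44.6, 46.4 and 27.2 CPM in LNB and 170.4, 203 and 201 CPM in Neuron cells. ENB cells were below NSC cells and Neuron cells above all others without overlap. Syt4 changed by 2.28 ± 0.31 (SE), adjusted p = 0.000713, at Neuron vs LNB, and -1.45 ± 0.30 (SE), adjusted p = 0.0127, at ENB vs NSC, a call that ended without ENB replicates 1 and 2, each left out in turn (adjusted p 0.0503 to 0.053). Syt2, a fast calcium sensor (ENSMUSG00000026452, chromosome 1, 134646534 to 134753149), had 19.5 and 17.4 CPM in NSC, 23.8 and 35.7 CPM in ENB, 1.47, 2.78 and 2.04 CPM in LNB and 2.71 and 1.18 CPM in Neuron immunoprecipitates. Syt2 in no-HA controls was at 15.6, 21.3 and 26.8 CPM in SVZ and 1.57, 3.58 and 8.51 CPM in OB tissue. In total mRNA Syt2 had 0.121, 0 and 0.673 CPM in NSC, 1.98, 1.63 and 0.0652 CPM in ENB, 0.973, 2.34 and 0.534 CPM in LNB and 24.7, 14.0 and 0.745 CPM in Neuron cells. All SVZ immunoprecipitation libraries lay above all OB ones, with or without HA, and in total mRNA Neuron replicate 3 lay within the range of the other stages. Syt2 changed by -3.82 ± 0.59 (SE), adjusted p = 0.000366, at LNB vs ENB in ribosome-bound mRNA and by -2.21 ± 0.52 (SE), adjusted p = 0.00943, between OB and SVZ controls. Syt1, the main fast calcium sensor, rose by 3.51 ± 0.66 (adjusted p = 0.00482) at Neuron vs LNB in total mRNA and averaged 2218 ± 83.4 CPM in Neuron immunoprecipitates (SD, n = 2) against 1552 ± 204 CPM in OB controls (SD, n = 3), a difference of 0.52 ± 0.23 (adjusted p = 0.0974) that did not pass the test. Syt5 exceeded the OB control in Neuron (1.33 ± 0.20, adjusted p = 0.000363) and LNB immunoprecipitates (0.82 ± 0.18, adjusted p = 0.0149), the second call ending without LNB replicates 2 and 3, each left out in turn (adjusted p 0.0701 to 0.0767). Syt7, a slow sensor of high calcium affinity, was the gene that rose at both LNB vs ENB (2.96 ± 0.47, adjusted p = 0.00956) and Neuron vs LNB (1.99 ± 0.44, adjusted p = 0.0111) in total mRNA whichever library was left out. Syt11, another non-sensor, passed no step test and ranged from group means of 653 ± 147 CPM to 971 ± 194 CPM in LNB and Neuron cells (SD, n = 3 each).

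The synapsins coat vesicles and hold them in the reserve pool. Syn2 (ENSMUSG00000009394, chromosome 6, 115134902 to 115282626) had 253 and 189.7 CPM in NSC, 222 and 143 CPM in ENB, 582, 784 and 544 CPM in LNB and 703 and 599.5 CPM in Neuron immunoprecipitates. Syn2 in no-HA controls was at 261, 137 and 96.2 CPM in SVZ and 345, 264 and 139.6 CPM in OB tissue. In total mRNA Syn2 had 57.3, 15.7 and 90.1 CPM in NSC, 6.99, 9.77 and 7.83 CPM in ENB, 26.6, 22.1 and 32.6 CPM in LNB and 184, 196 and 252 CPM in Neuron cells. LNB and Neuron immunoprecipitates lay above all OB controls and all SVZ immunoprecipitation libraries, and ENB cells were the lowest of the sorted cells. Syn2 changed by 2.96 ± 0.49 (SE), adjusted p = 0.00229, at Neuron vs LNB and -2.73 ± 0.49 (SE), adjusted p = 0.00687, at ENB vs NSC in total mRNA, and 1.80 ± 0.42 (SE), adjusted p = 0.00909, at LNB vs ENB in ribosome-bound mRNA. That ribosome-bound call ended without ENB replicate 2 (adjusted p = 0.108). Neuron immunoprecipitates exceeded OB controls by 1.38 ± 0.39 (SE), adjusted p = 0.0158, a call that ended without Neuron replicate 1 (adjusted p = 0.0679). Syn1 (ENSMUSG00000037217, chromosome X, 20860511 to 20920918), whose promoter window is shown above, had 202 and 179 CPM in NSC, 279 and 286 CPM in ENB, 687, 756 and 774 CPM in LNB and 1273 and 891 CPM in Neuron immunoprecipitates. Syn1 in no-HA controls was at 247, 230.1 and 213 CPM in SVZ and 536, 647 and 340.1 CPM in OB tissue. In total mRNA Syn1 had 87.9, 21.3 and 59.9 CPM in NSC, 106, 91.6 and 114 CPM in ENB, 119.9, 165 and 111 CPM in LNB and 399, 541 and 496 CPM in Neuron cells. Neuron libraries were the highest in both kinds of mRNA, by 1.86 ± 0.40 (adjusted p = 0.00924) over LNB cells. LNB immunoprecipitates exceeded ENB ones by 1.39 ± 0.27 (adjusted p = 0.00234), and OB controls exceeded SVZ controls by 1.14 ± 0.23 (adjusted p = 0.00298). The gene bodies of Syn1, Syn2 and Syn3 overlap those of Timp1, Timp4 and Timp3, and the libraries do not mark strand. The ratio of expected to raw counts was 1.79 for Syn1 and 1.81 for Syn2, near the 1.85 over all genes.

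Syn3 (ENSMUSG00000059602, chromosome 10, 86048746 to 86498926) was read as uncertain because of its overlap with Timp3 and its own ratio of expected to raw counts, given below. It had 187 and 223 CPM in NSC, 76.5 and 97.7 CPM in ENB, 85.0, 62.8 and 73.6 CPM in LNB and 28.6 and 29.8 CPM in Neuron immunoprecipitates. Syn3 in no-HA controls was at 65.4, 88.4 and 85.1 CPM in SVZ and 135, 153 and 116 CPM in OB tissue. In total mRNA Syn3 had 134, 144 and 137 CPM in NSC, 50.1, 43.1 and 33.9 CPM in ENB, 159, 51.7 and 251 CPM in LNB and 132, 109.6 and 51.2 CPM in Neuron cells. In both kinds of mRNA NSC lay above ENB without overlap. Timp3, an inhibitor of metalloproteinases (chromosome 10, 86300412 to 86349505), lies inside Syn3. The deposited expected counts gave Syn3 a ratio of 0.34 to the raw counts, against 1.85 over all genes. With expected counts in place of raw counts the log2 change of Syn3 at ENB vs NSC was 1.23 against -1.24 in ribosome-bound mRNA and 2.07 against -1.70 in total mRNA, and its difference of NSC immunoprecipitates from SVZ controls was -1.11 against 1.37.

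Among the SV2 glycoproteins of the vesicle membrane, Sv2a (the binding site of the drug levetiracetam) rose at LNB in ribosome-bound and at Neuron in total mRNA, while Sv2b and Sv2c fell at LNB in ribosome-bound mRNA. Sv2a (ENSMUSG00000038486, chromosome 3, 96181227 to 96195183) had 158 and 163 CPM in NSC, 241 and 158 CPM in ENB, 566, 637 and 538 CPM in LNB and 799 and 793 CPM in Neuron immunoprecipitates. Sv2a in no-HA controls was at 244, 171 and 193 CPM in SVZ and 418, 429 and 213 CPM in OB tissue. In total mRNA Sv2a had 41.3, 13.9 and 79.0 CPM in NSC, 29.0, 29.5 and 45.6 CPM in ENB, 94.6, 67.3 and 52.2 CPM in LNB and 467, 531 and 423 CPM in Neuron cells. Neuron cells lay above all others, by 2.73 ± 0.49 (SE), adjusted p = 0.00384, from LNB. LNB immunoprecipitates lay above all ENB ones, by 1.54 ± 0.30 (SE), adjusted p = 0.00259, a call that ended without ENB replicate 2 (adjusted p = 0.056). Sv2c (ENSMUSG00000051111, chromosome 13, 95959443 to 96132577) had 113 and 82.7 CPM in NSC, 237 and 218 CPM in ENB, 74.3, 94.1 and 78.8 CPM in LNB and 149 and 140.3 CPM in Neuron immunoprecipitates. Sv2c in no-HA controls was at 169.7, 210.2 and 222 CPM in SVZ and 65.9, 63.8 and 67.0 CPM in OB tissue. In total mRNA Sv2c had 5.09, 8.69 and 3.70 CPM in NSC, 0.776, 0 and 4.37 CPM in ENB, 0, 3.17 and 0.356 CPM in LNB and 7.18, 56.6 and 36.5 CPM in Neuron cells. Sorted cells were low before Neuron, whereas the ENB immunoprecipitates and SVZ controls were the highest of all libraries. Sv2c rose by 1.21 ± 0.23 (adjusted p = 0.00592) at ENB vs NSC, changed by -1.46 ± 0.20 (adjusted p = 0.000149) at LNB vs ENB and rose by 0.81 ± 0.20 (adjusted p = 0.0335) at Neuron vs LNB in ribosome-bound mRNA, and OB controls differed from SVZ controls by -1.61 ± 0.19 (adjusted p = 2.07e-05). The first of these calls ended without NSC replicate 2 (adjusted p = 0.0653), and the last step's call without LNB replicates 1, 2 and 3 and Neuron replicates 1 and 2, each left out in turn (adjusted p 0.0567 to 0.145). Sv2b was at 0 counts in all 3 ENB cell libraries and had 38.1, 0 and 0.673 CPM in NSC cells, so its NSC level rests on replicate 1. It had 13.5, 9.17 and 0.178 CPM in LNB cells, where replicate 3 was close to 0 as well, and neither step passed the test. Sv2a held 62.7%, 50.3%, 88.2% and 88.4% of the summed SV2 TPM in NSC, ENB, LNB and Neuron immunoprecipitates, against 50.2% in SVZ and 79.1% in OB controls.

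The complexins, which clamp and then promote SNARE fusion, moved in opposite directions at the step to LNB in ribosome-bound mRNA. Cplx2 (ENSMUSG00000025867, chromosome 13, 54301964 to 54383923) had 1082 and 867 CPM in NSC, 1193 and 1223 CPM in ENB, 199, 187 and 225 CPM in LNB and 301 and 263 CPM in Neuron immunoprecipitates. Cplx2 in no-HA controls was at 1631, 953 and 1922 CPM in SVZ and 258, 235 and 219 CPM in OB tissue. In total mRNA Cplx2 had 61.6, 55.8 and 47.0 CPM in NSC, 58.1, 53.7 and 59.5 CPM in ENB, 37.1, 70.7 and 18.9 CPM in LNB and 438, 276 and 154 CPM in Neuron cells. All SVZ immunoprecipitation libraries, controls included, lay above all OB ones, and Neuron cells above all other sorted cells. Cplx2 changed by -2.57 ± 0.26 (SE), adjusted p = 7.17e-06, at LNB vs ENB in ribosome-bound mRNA and by -2.66 ± 0.25 (SE), adjusted p = 2.21e-06, between OB and SVZ controls. In total mRNA it rose at Neuron vs LNB, by 2.77 ± 0.46 (SE), adjusted p = 0.00227. Cplx1 (ENSMUSG00000033615, chromosome 5, 108518554 to 108550027) had 385 and 309 CPM in NSC, 294 and 354 CPM in ENB, 692, 697 and 676 CPM in LNB and 1304 and 1172 CPM in Neuron immunoprecipitates. Cplx1 in no-HA controls was at 477, 303 and 438 CPM in SVZ and 726, 813 and 473 CPM in OB tissue. In total mRNA Cplx1 had 60.9, 47.8 and 181 CPM in NSC, 86.6, 80.3 and 103 CPM in ENB, 88.5, 165 and 91.0 CPM in LNB and 777, 908 and 691 CPM in Neuron cells. LNB immunoprecipitates lay above ENB ones, by 1.09 ± 0.27 (SE), adjusted p = 0.0129, a call that ended without ENB replicates 1 and 2, each left out in turn (adjusted p 0.0531 to 0.134). Neuron cells lay above LNB cells by 2.79 ± 0.46 (SE), adjusted p = 0.00218. The share of Cplx1 in the summed TPM of both complexins was 48.4%, 41.2%, 89.6% and 91.5% in NSC, ENB, LNB and Neuron immunoprecipitates, against 41.0% in SVZ and 87.0% in OB controls. In NSC, ENB, LNB and Neuron cells it was 76.6%, 78.7%, 86.8% and 87.6%.

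Of the 7 active zone and priming genes, Bsn and Unc13a were the 2 of the whole list of 42 that rose at ENB in total mRNA. Of all genes 4.95% rose there. In Neuron immunoprecipitates 4 of the 7 were below and 0 above the OB control, against 15.7% and 11.6% of all genes. The rise of Bsn, 1.57 ± 0.34 (SE), adjusted p = 0.0156, ended as a call without ENB replicate 2 and NSC replicates 2 and 3, each left out in turn (adjusted p 0.0593 to 0.0708), and with the animals as a block (adjusted p = 0.127). Unc13a (Munc13-1, the main priming factor; ENSMUSG00000034799, chromosome 8, 71624125 to 71671774) had 4774 and 2828 CPM in NSC, 10207 and 6997 CPM in ENB, 6689, 4333 and 4227 CPM in LNB and 677 and 651 CPM in Neuron immunoprecipitates. Unc13a in no-HA controls was at 6504, 5074 and 10519 CPM in SVZ and 12776, 14165 and 12497 CPM in OB tissue. In total mRNA Unc13a had 52.4, 37.1 and 40.6 CPM in NSC, 103, 85.5 and 80.0 CPM in ENB, 76.7, 88.3 and 61.1 CPM in LNB and 126, 95.9 and 149 CPM in Neuron cells. Every immunoprecipitation library, controls included, lay above every sorted cell library, and the OB controls were the highest of all. Unc13a took 1.27 to 1.51% of all counts in OB controls and held rank 2 by mean CPM there, after the nuclear RNA Malat1. By counts in OB control replicates 1, 2 and 3 Unc13a ranked 1, 1 and 4. Neither ranking of Unc13a is corrected for transcript length. It changed by -2.94 ± 0.38 (SE), adjusted p = 0.000692, at Neuron vs LNB in ribosome-bound mRNA, and Neuron and LNB immunoprecipitates differed from OB controls by -4.31 ± 0.41 (adjusted p = 3.52e-05) and -1.37 ± 0.31 (adjusted p = 0.0158). The LNB call ended without LNB replicates 2 and 3, each left out in turn (adjusted p 0.0826 to 0.0965). In total mRNA it rose at ENB by 1.05 ± 0.24 (SE), adjusted p = 0.0198, a call that ended without ENB replicates 1 and 2 and NSC replicates 2 and 3, each left out in turn (adjusted p 0.0513 to 0.108). Among the other leading genes of the OB controls was Lrp1b, a receptor of the LDL receptor family, at 598.5 and 3339 CPM in Neuron and LNB immunoprecipitates against 8596 CPM in OB controls, and at 44.5 CPM in LNB cells (group means). By TPM, Unc13a was the first of the 42 genes in ENB immunoprecipitates and in both sets of controls.

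Unc13b (Munc13-2; ENSMUSG00000028456, chromosome 4, 43046193 to 43264873) had 256 and 157 CPM in NSC, 343 and 349 CPM in ENB, 526, 260.2 and 407 CPM in LNB and 63.4 and 103 CPM in Neuron immunoprecipitates. Unc13b in no-HA controls was at 321, 322 and 431 CPM in SVZ and 989, 1119 and 749 CPM in OB tissue. In total mRNA Unc13b had 7.20, 12.3 and 12.2 CPM in NSC, 57.8, 17.0 and 43.2 CPM in ENB, 38.2, 73.7 and 38.3 CPM in LNB and 59.4, 16.5 and 16.8 CPM in Neuron cells. It followed Unc13a in being highest in OB controls and lowest among immunoprecipitates at Neuron, by -2.26 ± 0.34 (adjusted p = 0.00195) from LNB and by -3.52 ± 0.37 (adjusted p = 3.52e-05) from the controls. Colgalt1 and Fam214b overlap the gene bodies of Unc13a and Unc13b. Rims3, a short member of the RIM family (ENSMUSG00000032890, chromosome 4, 120854779 to 120896580), had 53.7 and 31.2 CPM in NSC, 24.7 and 42.4 CPM in ENB, 82.0, 95.9 and 95.2 CPM in LNB and 110.1 and 117 CPM in Neuron immunoprecipitates. Rims3 in no-HA controls was at 35.4, 32.6 and 43.6 CPM in SVZ and 78.9, 78.0 and 70.9 CPM in OB tissue. In total mRNA Rims3 had 21.7, 30.7 and 21.5 CPM in NSC, 9.92, 5.26 and 3.65 CPM in ENB, 12.6, 4.96 and 14.4 CPM in LNB and 51.6, 25.8 and 54.6 CPM in Neuron cells. LNB and Neuron immunoprecipitates were above all SVZ immunoprecipitation libraries, as were the OB controls, and in total mRNA ENB cells were below all NSC cells. The log2 change was 1.44 ± 0.28 (adjusted p = 0.00253) at LNB vs ENB in ribosome-bound mRNA, a call that ended without ENB replicate 1 (adjusted p = 0.0582), and -1.97 ± 0.52 (adjusted p = 0.0352) at ENB vs NSC in total mRNA, a call that ended without ENB replicates 2 and 3 and NSC replicates 1, 2 and 3, each left out in turn (adjusted p 0.0582 to 0.126). The large scaffolds Bsn and Pclo rose by 1.16 ± 0.34 (adjusted p = 0.038) and 1.64 ± 0.32 (adjusted p = 0.00588) at Neuron vs LNB in total mRNA, with the Bsn call ending without LNB replicates 1 and 3 and Neuron replicates 1 and 3, each left out in turn (adjusted p 0.0787 to 0.108). Pclo was below the OB control in Neuron immunoprecipitates by -1.27 ± 0.40 (adjusted p = 0.0285), a call that ended without Neuron replicate 2 and OB control replicate 3, each left out in turn (adjusted p 0.11 to 0.206). Rims1 changed by -1.38 ± 0.40 (adjusted p = 0.0332) at LNB vs ENB in ribosome-bound mRNA, a call that ended without ENB replicates 1 and 2 and LNB replicates 1, 2 and 3, each left out in turn (adjusted p 0.0629 to 0.22). Between OB and SVZ controls Rims1 changed by -1.31 ± 0.37 (adjusted p = 0.0294). Net of the controls its step was -0.07 ± 0.55 (adjusted p = 0.978). Rims2 was at group means from 37.3 ± 4.07 CPM to 57.4 ± 5.01 CPM in NSC and Neuron cells (SD, n = 3 each) with no call in total mRNA.

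All 4 genes of the Rab3 group, small GTPases of the vesicle surface and their effector Rph3a (rabphilin), were higher in Neuron than in LNB cells. Of all genes 5.33% were. The 4 genes split in ribosome-bound mRNA. Rab3b (ENSMUSG00000003411, chromosome 4, 108879070 to 108943324) had 35.7 and 34.6 CPM in NSC, 49.3 and 49.9 CPM in ENB, 177, 181 and 170.5 CPM in LNB and 257 and 229 CPM in Neuron immunoprecipitates. Rab3b in no-HA controls was at 66.8, 49.4 and 51.0 CPM in SVZ and 192, 229.7 and 148 CPM in OB tissue. In total mRNA Rab3b had 13.9, 3.28 and 22.9 CPM in NSC, 21.6, 17.8 and 11.2 CPM in ENB, 66.6, 25.8 and 29.2 CPM in LNB and 235, 289.8 and 173 CPM in Neuron cells. All OB immunoprecipitation libraries, controls included, lay above all SVZ ones, and Neuron cells above all other sorted cells. Rab3b changed by 1.83 ± 0.23 (SE), adjusted p = 5.79e-05, at LNB vs ENB in ribosome-bound mRNA, by 1.77 ± 0.20 (SE), adjusted p = 1.42e-05, between OB and SVZ controls, and by 2.52 ± 0.59 (SE), adjusted p = 0.0147, at Neuron vs LNB in total mRNA. Rph3a (ENSMUSG00000029608, chromosome 5, 120940499 to 121010116) had 178 and 145 CPM in NSC, 166 and 129 CPM in ENB, 21.6, 32.9 and 31.5 CPM in LNB and 45.9 and 18.8 CPM in Neuron immunoprecipitates. Rph3a in no-HA controls was at 154, 129.7 and 205 CPM in SVZ and 41.3, 39.8 and 19.3 CPM in OB tissue. In total mRNA Rph3a had 10.5, 4.88 and 43.6 CPM in NSC, 0.604, 5.38 and 5.02 CPM in ENB, 6.32, 13.2 and 8.37 CPM in LNB and 124, 55.9 and 47.5 CPM in Neuron cells. All SVZ immunoprecipitation libraries, controls included, lay above all OB ones, and Neuron cells lay above all other sorted cells. Rph3a changed by -2.36 ± 0.36 (SE), adjusted p = 0.000375, at LNB vs ENB in ribosome-bound mRNA and by -2.29 ± 0.34 (SE), adjusted p = 0.000234, between OB and SVZ controls. Its rise at Neuron vs LNB in total mRNA, 3.02 ± 0.88 (SE), adjusted p = 0.0382, ended without LNB replicates 1, 2 and 3 and Neuron replicates 1 and 2, each left out in turn (adjusted p 0.055 to 0.131). Rab3a, the major vesicle Rab, exceeded the OB control in Neuron immunoprecipitates by 1.74 ± 0.32 (adjusted p = 0.00157) and rose by 1.77 ± 0.33 (adjusted p = 0.00465) at Neuron vs LNB in total mRNA. Rab3c rose by 2.61 ± 0.49 (adjusted p = 0.00486) at that step but changed by -1.04 ± 0.30 (adjusted p = 0.0309) at LNB vs ENB in ribosome-bound mRNA, a call that ended without ENB replicates 1 and 2 and LNB replicates 1, 2 and 3, each left out in turn (adjusted p 0.0691 to 0.126).

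Of the 5 genes of vesicle retrieval, 4 were higher in Neuron than in LNB cells, against 5.33% of all genes. In Neuron immunoprecipitates 4 were higher than in OB controls, against 11.6% of all genes. Amph, amphiphysin (ENSMUSG00000021314, chromosome 13, 18948142 to 19154032), had 48.5 and 54.7 CPM in NSC, 89.6 and 65.1 CPM in ENB, 186, 207 and 223 CPM in LNB and 316 and 253 CPM in Neuron immunoprecipitates. Amph in no-HA controls was at 90.3, 85.8 and 75.8 CPM in SVZ and 152, 169 and 140.1 CPM in OB tissue. In total mRNA Amph had 32.8, 16.7 and 37.2 CPM in NSC, 73.3, 50.8 and 66.8 CPM in ENB, 63.6, 61.4 and 29.4 CPM in LNB and 211, 185 and 223 CPM in Neuron cells. LNB and Neuron immunoprecipitates and OB controls lay above all SVZ immunoprecipitation libraries, and Neuron cells above all other sorted cells. Amph changed by 1.41 ± 0.22 (SE), adjusted p = 0.00039, at LNB vs ENB in ribosome-bound mRNA, 0.87 ± 0.19 (SE), adjusted p = 0.00502, between OB and SVZ controls, and 2.00 ± 0.35 (SE), adjusted p = 0.00313, at Neuron vs LNB in total mRNA. Sh3gl2, endophilin A1 (ENSMUSG00000028488, chromosome 4, 85205456 to 85389380), whose promoter window is shown above, had 97.9 and 143 CPM in NSC, 175 and 229 CPM in ENB, 586, 581 and 621 CPM in LNB and 798 and 676 CPM in Neuron immunoprecipitates. Sh3gl2 in no-HA controls was at 147, 209.7 and 159 CPM in SVZ and 427, 485 and 233 CPM in OB tissue. In total mRNA Sh3gl2 had 67.0, 5.94 and 22.8 CPM in NSC, 36.1, 38.7 and 19.0 CPM in ENB, 91.8, 130.3 and 92.6 CPM in LNB and 216, 256 and 509 CPM in Neuron cells. LNB and Neuron immunoprecipitates lay above all OB controls and all SVZ immunoprecipitation libraries. Sh3gl2 rose by 1.56 ± 0.30 (SE), adjusted p = 0.00259, at LNB vs ENB in ribosome-bound mRNA, a call that ended without ENB replicate 1 (adjusted p = 0.0545), while its change at Neuron vs LNB in total mRNA, 1.64 ± 0.65 (SE), adjusted p = 0.112, did not pass the test. Dnm1, the neuronal dynamin that severs vesicles from the membrane (ENSMUSG00000026825, chromosome 2, 32308471 to 32353349), had 147 and 154 CPM in NSC, 104 and 74.5 CPM in ENB, 232, 277 and 175 CPM in LNB and 209 and 224 CPM in Neuron immunoprecipitates. Dnm1 in no-HA controls was at 247, 111 and 109 CPM in SVZ and 202, 145 and 121 CPM in OB tissue. In total mRNA Dnm1 had 20.4, 3.20 and 29.4 CPM in NSC, 2.07, 2.38 and 2.15 CPM in ENB, 19.1, 26.2 and 9.26 CPM in LNB and 303, 205 and 121 CPM in Neuron cells. The ENB cells were all below every other sorted library and the Neuron cells all above. Dnm1 changed by -3.0 ± 0.69 (adjusted p = 0.019), 3.05 ± 0.69 (adjusted p = 0.0343) and 3.52 ± 0.67 (adjusted p = 0.00504) at the 3 successive steps in total mRNA. The first call ended without ENB replicates 1, 2 and 3 and NSC replicate 3, each left out in turn (adjusted p 0.062 to 0.0754), and the second without ENB replicates 1, 2 and 3 and LNB replicates 1 and 3, each left out in turn (adjusted p 0.0561 to 0.132). In immunoprecipitates Dnm1 differed from the OB control by 0.47 ± 0.33 (adjusted p = 0.302) at Neuron, which did not pass the test. Synj1, the phosphoinositide phosphatase synaptojanin 1, and Bin1, a relative of Amph, rose by 1.64 ± 0.29 (adjusted p = 0.0031) and 1.24 ± 0.30 (adjusted p = 0.0174) at Neuron vs LNB in total mRNA, the Bin1 call ending without LNB replicates 1 and 3 and Neuron replicate 2, each left out in turn (adjusted p 0.0561 to 0.0567).

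Further genes of the vesicle cycle, 98 measured of 99 listed, were followed for comparison. In Neuron against LNB cells 32 of the 96 tested were higher and 2 lower, against 5.33% and 9.34% of all genes, with a median log2 change of 0.85. The vesicular proton pump, which makes the gradient that fills vesicles, held 12 of its 16 measured genes higher (median 1.14), led by Atp6v1c1 at 2.21 ± 0.28 (adjusted p = 0.000486), Atp6v1b2 at 1.79 ± 0.23 (adjusted p = 0.000542) and Atp6v1a at 2.01 ± 0.27 (adjusted p = 0.000663). The fusion list held 7 of 22 higher, the active zone list 5 of 19, the list of other vesicle proteins 1 of 16, and the endocytosis list 7 of 23. Both genes that were lower, Sh3glb1 at -1.17 ± 0.22 (adjusted p = 0.00453) and Sh3gl1 at -1.21 ± 0.30 (adjusted p = 0.018), are relatives of Sh3gl2 in the endocytosis list. In Neuron immunoprecipitates all 16 proton pump genes exceeded the OB control (median 1.34), and 38 of the 97 tested genes were higher and 6 lower, against 11.6% and 15.7% of all genes. At LNB vs ENB in ribosome-bound mRNA 26 of 97 rose and 4 fell, against 6.81% and 6.05% of all genes.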

How the data were processed

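RNA was measured by Smart-seq2 without strand marking, per the labels' protocols. The authors deposited 3 kinds of table: raw counts per gene, expected counts and TPM. Per the submitters' processing notes RSEM 1.2.21, Bowtie2 2.2.6 and GRCm38 were used; which tool made the raw counts is not given in the sources used here. Raw counts of 45195 Ensembl IDs were analysed, of which 44548 matched a symbol. Expected counts were rounded to whole numbers and served as an alternative. The deposited TPM, in which 92 rows carry no ID, served for levels between genes. All data columns matched a sample, so 0 were left out.

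Groups came from the titles. With edgeR 4.0.16 in R 4.3.3, counts were filtered by filterByExpr, scaled by TMM and tested by the quasi-likelihood F test, with p-values adjusted over all genes after Benjamini and Hochberg. Total libraries were fitted together (12), as were immunoprecipitates with their controls (15), and ribosome-bound with total libraries (21) for the interaction. In this way 20 comparisons were made, called at an adjusted p under 0.05. The scripts were tested on simulated data. Per-library CPM used TMM factors. Depth limits values near 0, such as Sv2b, Sv2c and Syt2 in sorted cells.

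Alternatives were RLE scaling, DESeq2 1.42.0, no filter, expected counts, a replicate block, a block for the animals that ENB and LNB share, the second index as a term, and leaving out each library. Same-numbered libraries did not deviate together in total mRNA (r -0.135 to 0.0706, 18 pairs) or ribosome-bound mRNA (r -0.017 to 0.104, 12 pairs). In groups of 2 libraries the deviations mirror each other, so several of the 12 ribosome-bound pairs repeat the same value. By the descriptions, ENB and LNB share animals in 2 pairs of immunoprecipitates and in 2 pairs of sorted libraries. Those pairs had r of -0.017 and 0.104 in ribosome-bound mRNA. In total mRNA, where they do not share a number, r was 0.0547 and 0.064. Values per library are given for the 2 genes of each role with the lowest adjusted p over the steps and for a member that alone moved the other way. The 42 genes and all lists were chosen with earlier results of these data known.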

Additional observations from a re-analysis of the deposited data

Results flagged for a closer look

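For these genes the change between stages differed between ribosome-bound and total mRNA by the interaction term of edgeR's quasi-likelihood test (adjusted p under 0.05), and values are the log2 change in ribosome-bound mRNA minus that in total mRNA. At ENB vs NSC 4 genes differed, Vamp1 by 4.57, Nsf by 2.01, Syt4 by 2.2 and Syn2 by 2.61, against 1.49% of all genes higher and 1.32% lower, and the count was 0 without ENB immunoprecipitate replicate 1 or NSC immunoprecipitate replicate 2. At LNB vs ENB 9 differed, against 1.89% of all genes higher and 4.26% lower, and the count was 1 without ENB immunoprecipitate replicate 1. Amph was at 1.60, whereas Vamp1 was at -4.34, Sypl at -2.47, Syt7 at -2.84, Syn3 at -2.2, Cplx2 at -2.25, Pclo at -2.40 and Rph3a at -3.83. Sv2b was at -10.51, a fitted value that rests on ENB cells at 0 counts and is no measure of size. At Neuron vs LNB 13 differed, against 1.46% of all genes higher and 1.69% lower, and the count was 2 without either Neuron immunoprecipitate. The SNARE disassembly genes Nsf and Napb were at -2.51 and -2.73, and the vesicle membrane genes Syp, Syngr1 and Sv2a at -2.02, -1.40 and -2.28. Syt1 was at -2.91, Syt4 at -1.68, Syn2 at -2.93, Cplx2 at -2.30 and Rab3c at -2.98. Pclo was at -2.03, Unc13a at -3.65 and Dnm1 at -3.59.

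At Neuron vs NSC 12 differed, against 2.45% of all genes higher and 3.39% lower in this test. Syt2 was at -8.89, Syt7 at -2.70, Syn3 at -2.26, Cplx2 at -4.14, Rab3c at -3.46, Rph3a at -4.23 and Dnm1 at -3.0. The Syt2 value rests on NSC cells with 2, 0 and 6 counts and is no measure of size. Syn3 is uncertain here and at LNB vs ENB, as described with the synapsins. Among active zone genes Bsn was at -1.92, Pclo at -3.61, Rims1 at -4.17, Unc13a at -3.98 and Unc13b at -2.82. This count of 12 became 5 without either Neuron immunoprecipitate and 7 without NSC immunoprecipitate replicate 1. In each of these tests the ribosome-bound side holds unsorted tissue, except that the labels leave sorting of the Neuron immunoprecipitates uncertain. The no-HA controls were not part of these tests, and Unc13a lay below the OB controls in LNB and Neuron immunoprecipitates. Markers of other cells are given with the results, and their part was not tested.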

How the results depend on the processing

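Counts are of the 42 genes called in either direction, with the value of the reported analysis after "against". DESeq2 called 12 against 6 at ENB vs NSC and 10 against 5 at Neuron vs LNB in ribosome-bound mRNA, 16 against 9 at ENB vs NSC and 11 against 4 at LNB vs ENB in total mRNA, 2 against 0 net of controls, 21 against 13 at Neuron vs LNB for ribosome-bound minus total, and 16 against 8 in NSC immunoprecipitates over controls. Without the low count filter LNB vs ENB gave 8 in total mRNA and 3 net of controls. The second index as a term gave 12 at Neuron vs LNB and 16 at LNB vs NSC in ribosome-bound mRNA. The stages compared there share no second index, so these counts rest on the other groups in the fit. The term gave 1 at LNB vs ENB in total mRNA, 6 net of controls, 3 in NSC immunoprecipitates over controls and 11 between the controls. It could not be fitted for ribosome-bound minus total and was not run there. The replicate block gave 1 against 4 at LNB vs ENB in total mRNA, 22 against 23 at that step in ribosome-bound mRNA and 9 against 13 at Neuron vs LNB for ribosome-bound minus total, and moved no other count by over 1.5 times.

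With the block for shared animals, ribosome-bound mRNA gave 0 at ENB vs NSC, 14 at LNB vs ENB, 2 at Neuron vs LNB and 12 at LNB vs NSC. Total mRNA gave 1, 2, 17 and 1 at the same comparisons, and ribosome-bound minus total gave 0, 2 and 1 at the 3 steps. NSC and LNB immunoprecipitates over controls gave 5 and 1. Block counts that set ENB or LNB against NSC, Neuron or controls rest largely on the few libraries of these stages from unshared animals. Among immunoprecipitates this is LNB replicate 3 alone, for ENB as well. By level, onset was ENB for 9 and Neuron for 1 gene in ribosome-bound mRNA, and ENB for 4 and LNB for 0 genes in total mRNA. With expected counts Syn3 reversed, to 1.226 at ENB vs NSC, 1.225 at LNB vs NSC and 0.355 at Neuron vs NSC in ribosome-bound mRNA, 2.07 at ENB vs NSC in total mRNA, 0.009 at LNB vs ENB for ribosome-bound minus total and -1.106 in NSC immunoprecipitates over controls. The cause of these shifts was not tested.

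Leaving out 1 library at a time gave these ranges. In ribosome-bound mRNA they were 1 to 3 at ENB vs NSC, 11 to 16 at LNB vs ENB, 3 to 4 at Neuron vs LNB, 17 to 25 at LNB vs NSC and 27 to 29 at Neuron vs NSC. In total mRNA they were 3 to 8, 1 to 6, 22 to 29, 1 to 4 and 30 to 32 at the same comparisons. For ribosome-bound minus total they were 0 to 9, 1 to 9 and 2 to 16 at the 3 steps and 5 to 15 at Neuron vs NSC. Against controls they were 1 to 6 for NSC, 0 for ENB, 1 to 10 for LNB and 21 to 29 for Neuron, and they were 12 to 21 between the controls and 0 net of controls. Of the 28 genes higher at Neuron vs LNB in total mRNA 17 kept the call in every alternative, as did 9 of 23 at LNB vs ENB in ribosome-bound mRNA and 15 of 30 in Neuron immunoprecipitates over controls. RLE scaling lowered the all-gene median at LNB vs ENB in ribosome-bound mRNA to -0.06 against 0.08. With 2 or 3 libraries a group, small changes of genes near 0 were not detectable at this depth.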
